A study of Mus musculus with 8 samples.

Results

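Hox genes encode homeodomain transcription factors and lie in 4 clusters, Hox A to Hox D. Within a cluster the genes carry paralogue numbers. In the embryo, low numbers at the 3′ end are switched on early and towards the head, and high numbers at the 5′ end are switched on later, towards the tail and in the outer limb. Once set, a Hox pattern is held by Polycomb and Trithorax chromatin proteins, and fibroblasts in culture are known to keep a pattern tied to the body site they were taken from, as shown best for human skin. The genes described here were chosen by name: a probe set (the group of array probes that yields 1 value) counted where the platform annotation gave it exactly 1 symbol of the form Hoxa, Hoxb, Hoxc or Hoxd plus a number. Of 38 listed Hox genes, 33 were measured in this way, on 48 of the 45037 probe sets tested: 9 genes of Hox A, 9 of Hox B, 7 of Hox C and 8 of Hox D. Hoxb8 and Hoxd4 occur there only on probe sets shared with other genes and are given no value, and Hoxa6, Hoxc11 and Hoxc12 were not analysed here.

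The cells were mouse embryonic fibroblasts of the C57BL/6 strain that lack Stat5 and carry a retroviral vector with 1 of 2 STAT5 mutants. STAT5 is the transcription factor that the growth hormone receptor activates through a tyrosine phosphorylation. In YF cells that tyrosine is replaced (Y694F), and in EA cells a pair of glutamates in what the labels call the binding domain is replaced by alanines. Both kinds of cells were taken unstimulated and 120 minutes into a growth hormone treatment, which gave 4 groups of 2 arrays, called biological duplicates by the series text. The labels used here do not say from which part of how many embryos the cells came, how many infected populations or clones stand behind a mutant, or whether the duplicates were separate cultures. All 4 EA arrays may therefore be 1 cell population and all 4 YF arrays another. The mutant and the population cannot be told apart, and the p-values measure the spread between these arrays.

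Values are log2 expression values. About 55% of all probe sets had a mean below 4, in a dense cluster of low values called the low group here, inside which the scale is unknown. A difference with a side in the low group is therefore uncertain in size. Values of different probe sets share no scale, so no gene's level is set against another's. In the whole table, EA and YF arrays separated on the first principal component (69.9% of the variance), and YF with hormone replicate 1 stood apart on the second, at -55.8 against -3.28 for its partner. Fibroblast genes were bright in all groups: 13 of 13 markers were above the low group on every array. Their summed level was 17.4 in EA and 17.5 in YF cells (log2). Such a sum adds probe sets that share no scale and follows the brightest of them. It is set only against the same list in the other mutant, and it does not show the direction of single members. The 5 endothelial markers lay in the low group throughout and 0 were called.

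Promoters are printed for 4 genes, so that the DNA at the start of the genes most clearly split between the mutants can be read beside their values. They are the genes with the lowest adjusted p in each direction among those with an entry in the RefSeq promoter table. Each is 300 bases (250 before and 50 after the listed start), 5′ to 3′ on the gene's strand in GRCm38.p6, with matches to the searched motifs in capitals. Hoxb4 lies at chr11:96318017-96318316 (plus strand) and Hoxc4 at chr15:103034145-103034444 (plus strand), and both were lower in EA cells. Hoxd9 lies at chr2:74697513-74697812 (plus strand) and Hoxa11 at chr6:52245761-52246060 (minus strand), and both were higher in EA cells.
Hoxb4: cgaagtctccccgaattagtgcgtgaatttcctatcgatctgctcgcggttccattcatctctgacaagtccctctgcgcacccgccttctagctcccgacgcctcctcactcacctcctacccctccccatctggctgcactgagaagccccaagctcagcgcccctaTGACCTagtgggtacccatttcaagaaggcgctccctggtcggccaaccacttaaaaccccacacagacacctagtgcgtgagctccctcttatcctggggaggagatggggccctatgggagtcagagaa
Hoxc4: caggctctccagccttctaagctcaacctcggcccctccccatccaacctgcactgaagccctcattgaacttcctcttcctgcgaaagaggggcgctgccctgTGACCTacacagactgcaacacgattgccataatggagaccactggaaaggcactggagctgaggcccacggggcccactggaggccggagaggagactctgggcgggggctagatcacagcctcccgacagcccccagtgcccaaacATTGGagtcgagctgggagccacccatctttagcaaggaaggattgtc
Hoxd9: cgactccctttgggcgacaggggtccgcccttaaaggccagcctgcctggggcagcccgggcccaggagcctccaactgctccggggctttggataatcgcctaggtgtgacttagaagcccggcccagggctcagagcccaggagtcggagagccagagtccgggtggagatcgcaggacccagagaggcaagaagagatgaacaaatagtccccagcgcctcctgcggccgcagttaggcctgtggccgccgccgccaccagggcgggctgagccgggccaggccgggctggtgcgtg
Hoxa11: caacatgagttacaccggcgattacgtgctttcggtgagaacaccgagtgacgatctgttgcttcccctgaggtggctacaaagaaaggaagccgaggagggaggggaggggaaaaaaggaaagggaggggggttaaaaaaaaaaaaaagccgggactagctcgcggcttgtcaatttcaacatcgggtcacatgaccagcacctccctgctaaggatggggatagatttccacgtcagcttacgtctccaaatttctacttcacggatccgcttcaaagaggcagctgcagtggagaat
The search covered both strands for TTCNNNGAA (the STAT motif), TGATNNAT (bound by Hox proteins with Pbx), AGGTCA (the half-site of nuclear receptors such as those for retinoic acid), CCAAT (bound by NF-Y) and TATAAA (the TATA box). Hoxb4 and Hoxc4 each hold TGACCT, the AGGTCA half-site on the other strand. Hoxc4 also holds ATTGG, which is CCAAT on the other strand, within the 50 bases after the listed start. No searched motif was found in the Hoxd9 and Hoxa11 windows. Among the other called genes with an entry, AGGTCA was present for Hoxa5, lower in EA cells, and Hoxd8, higher in EA cells. It was absent for Hoxa2, Hoxa3 and Hoxd13, which were lower, and for Hoxa9 and Hoxa10, which were higher. AGGTCA occurred in 7 of the 24 Hox promoters in the table (29.2%) and in 16.3% of all 32851 promoters, and the STAT motif in 1 of 24 (4.17%, Hoxd4) and in 8.30% of all. CCAAT occurred in 15 of 24 (62.5%) against 37.4%, TGATNNAT in 4 of 24 (16.7%) against 8.85%, and TATAAA in 4 of 24 (16.7%) against 13.6%. These matches describe letters in a window and show no binding.

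Hox A and Hox D had like numbers of genes above the low group in both mutants, while Hox B and Hox C had fewer in EA cells. In YF cells 20 of 33 genes had a mean at or above 4 without hormone and the number was again 20 with hormone. In EA cells the numbers were 15 and 12. Hox D gave 5 of 8 genes in each of the 4 groups. Hox A gave 7 of 9 in every group but EA with hormone, which had 6, with Hoxa2 just under the bound at a mean of 3.9996. With a bound of 3.5 Hox A gave 7 of 9 in all 4 groups. Hox B gave 5 of 9 genes in both YF groups (Hoxb3, Hoxb4, Hoxb5, Hoxb6 and Hoxb9), against 1 of 9 in unstimulated EA cells (Hoxb3) and 0 of 9 in EA cells with hormone. With a bound of 3.5 in place of 4, Hox B gave 2 of 9 and 3 of 9 in the EA groups (Hoxb3 and Hoxb6 in both, Hoxb5 with hormone) and again 5 of 9 in the YF groups. Hox C gave 3 of 7 in YF cells (Hoxc4, Hoxc5 and Hoxc8), against 2 of 7 and 1 of 7 in EA cells, where Hoxc8 was the gene present in both. At 3.5, Hox C gave 3 of 7 in unstimulated EA cells, where Hoxc4 joined at a mean of 3.54, and 1 of 7 with hormone. Both YF groups then had 4 of 7, with Hoxc9 added, so the gap in Hox C without hormone is small and depends on the bound. These are RNA levels of bulk samples, in which fewer cells of a type and less RNA per cell cannot be told apart.

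**Figure D1:**
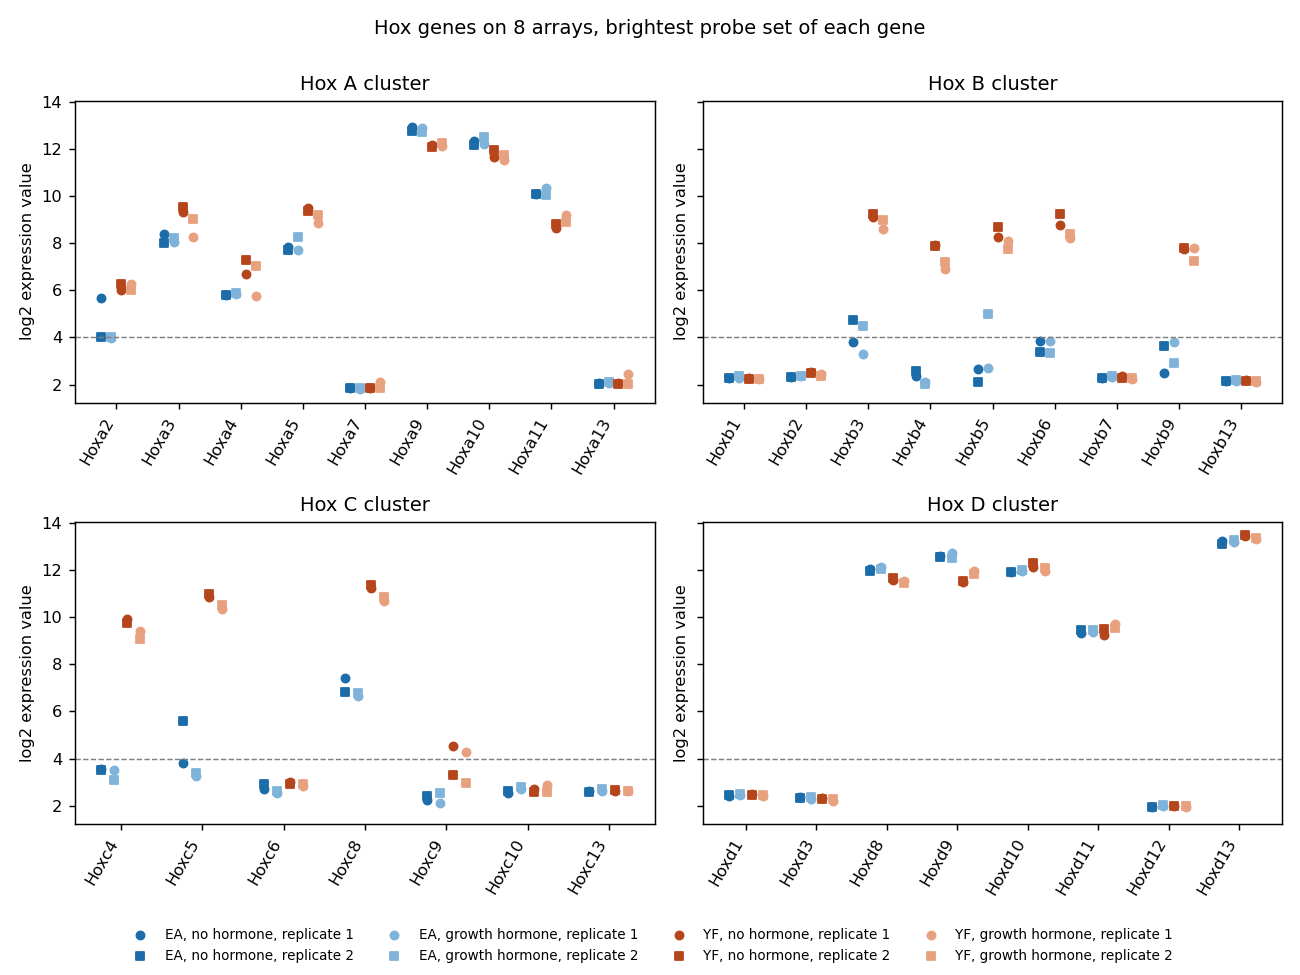
Log2 expression values (vertical axis) of the 33 Hox genes on the 8 arrays, by cluster and paralogue number, with 1 point per array; circles are replicate 1, squares replicate 2, and the dashed line marks the bound of 4. Hoxb3 to Hoxb6, Hoxb9, Hoxc4, Hoxc5 and Hoxc8 have all 4 YF arrays above all 4 EA arrays, while every Hox D gene differs by under 1 between the mutant means.

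The first comparison asks how the fibroblasts with the EA mutant differ from those with the YF mutant, averaged over both treatments. By their brightest probe sets, 5 Hox genes were higher in EA cells and 12 were lower (limma adjusted p under 0.05), while 16 did not pass. This is 15.2% higher and 36.4% lower, against 8.17% higher and 8.38% lower among all probe sets. Of the 33 genes, 20 had a mean at or above 4 in 1 or more groups, and all the called ones were among them. With the filter at a mean of 4, 24773 of the 45037 probe sets were left out and 7766 were called in either direction. The background for bright genes is therefore higher than the shares of all probe sets, and the Hox shares are not read as an excess. Counted by probe set, 7 of 48 were higher (14.6%) and 15 lower (31.2%). All 4 EA arrays lay above all 4 YF arrays for 5 Hox genes and below them for 12, against 9.54% and 9.04% of all probe sets. The median difference over the 33 genes was -0.11, against 0.02 over all probe sets. By cluster, 5 genes of Hox B and 3 of Hox C were lower in EA and 0 of either were higher, Hox A had 3 lower and 3 higher, and Hox D had 1 lower and 2 higher. For 13 of the 17 called genes, the call held under all 15 alternative settings tried.

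**Figure D2:**
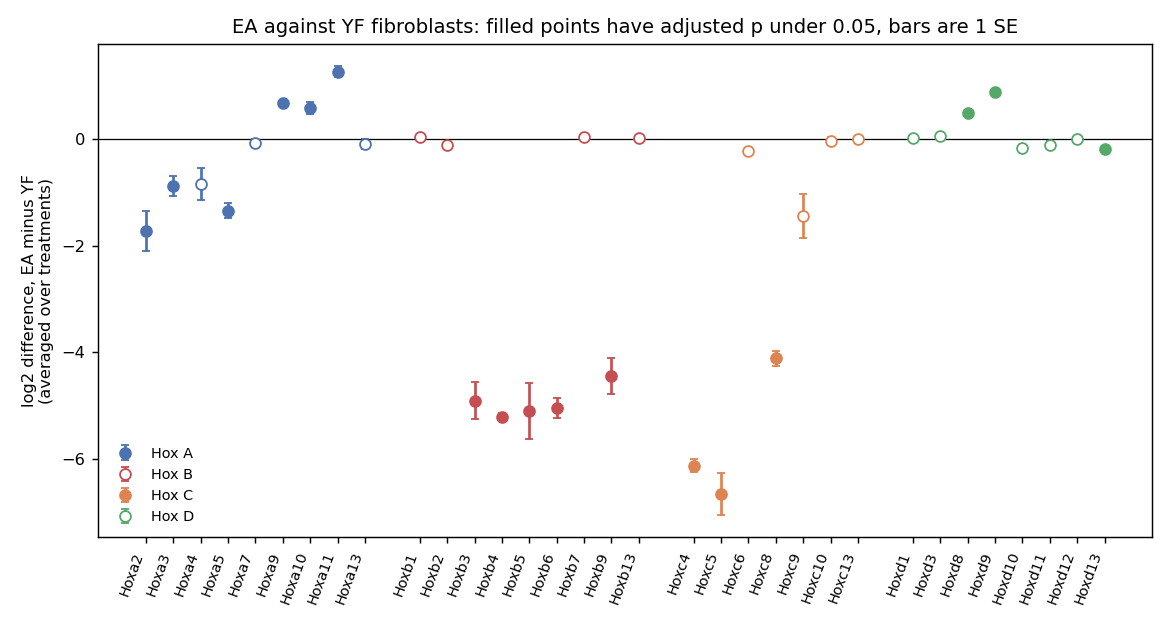
Log2 difference between EA and YF cells, averaged over treatments (vertical axis), for the 33 Hox genes in order of cluster and paralogue number; bars are 1 SE and filled points passed. Hox B and Hox C hold the 8 differences below -4, and Hox A turns from negative to positive between Hoxa5 and Hoxa9.

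In Hox B, 5 of 9 genes were lower in EA cells and 4, in the low group on all arrays, did not pass. Hoxb4, known for expanding blood stem cells when overexpressed, read 2.38 and 2.56 in unstimulated EA cells, 2.12 and 2.04 in EA cells with hormone, 7.93 and 7.88 in unstimulated YF cells, and 6.92 and 7.19 in YF cells with hormone. All EA arrays were in the low group and all YF arrays well above it. The averaged difference was -5.21 (SE 0.08, 4 arrays per side, limma adjusted p = 1.1e-05). It rests on 1 probe set: a second Hoxb4 probe set lay at 2.12 to 2.22 on all arrays and did not pass (0.02, SE 0.03, adjusted p = 0.70). Hoxb6, a gene of the trunk and limb buds, read 3.87 and 3.37 in unstimulated EA cells, 3.86 and 3.35 in EA cells with hormone, 8.77 and 9.24 in unstimulated YF cells, and 8.21 and 8.41 in YF cells with hormone. Again the EA arrays were all in the low group and did not overlap the YF arrays. The difference was -5.04 (SE 0.19, adjusted p = 0.00015).

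Hoxb3, an anterior gene with roles in the hindbrain and pharyngeal arches, read 3.83 and 4.73 in unstimulated EA cells, 3.31 and 4.50 in EA cells with hormone, 9.13 and 9.24 in unstimulated YF cells, and 8.60 and 8.995 in YF cells with hormone. Replicate 2 was above the bound in both EA groups and replicate 1 below it, and the YF arrays lay above them all. The difference was -4.90 (SE 0.34, adjusted p = 0.00090). It too rests on 1 probe set: a second Hoxb3 probe set lay at 2.52 to 2.67 on all arrays and did not pass (-0.02, SE 0.03, adjusted p = 0.69). Hoxb5, a gene with roles in the shoulder region and the enteric nervous system, read 2.65 and 2.11 in unstimulated EA cells, 2.70 and 4.98 in EA cells with hormone, 8.29 and 8.68 in unstimulated YF cells, and 8.11 and 7.74 in YF cells with hormone. One EA array with hormone was far above its partner, though still below every YF array. The difference was -5.10 (SE 0.52, adjusted p = 0.0030). Hoxb9, a thoracic gene, read 2.47 and 3.63 in unstimulated EA cells, 3.82 and 2.91 in EA cells with hormone, 7.77 and 7.78 in unstimulated YF cells, and 7.80 and 7.25 in YF cells with hormone. Its groups were as clearly apart, with a difference of -4.44 (SE 0.34, adjusted p = 0.0013). Between these genes on the chromosome lies Hoxb7, whose 1 probe set stayed in the low group on every array (2.24 to 2.38), as did Hoxb1 (2.22 to 2.36) and Hoxb2 (2.33 to 2.56) at the 3′ end and Hoxb13 (2.11 to 2.20) at the 5′ end.

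Of 12 listed antisense and noncoding genes of the clusters, 3 were measured. Among these, 1 was higher in EA cells and 1 lower (33.3% each, against 8.17% higher and 8.38% lower of all probe sets). A mean at or above 4 in 1 or more groups was found for 2 of the 3, so these shares are not read as an excess. Hoxb5os, which overlaps the Hox B cluster, was the lower one. It read 2.20 and 2.30 in unstimulated EA cells, 2.17 and 2.34 in EA cells with hormone, 9.33 and 9.97 in unstimulated YF cells, and 9.16 and 9.54 in YF cells with hormone. The difference was -7.25 (SE 0.17, limma adjusted p = 3.5e-05), and since its EA side is in the low group its size is not ranked against others.

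In Hox C, 3 genes were lower in EA cells and 4 did not pass. Hoxc4, a gene of the neck and upper thorax, read 3.55 and 3.52 in unstimulated EA cells, 3.503 and 3.07 in EA cells with hormone, 9.92 and 9.76 in unstimulated YF cells, and 9.40 and 9.08 in YF cells with hormone. The EA arrays were in the low group and the YF arrays did not come near them. The difference was -6.13 (SE 0.12, adjusted p = 2.5e-05). Hoxc5, its neighbour in the cluster, read 3.83 and 5.61 in unstimulated EA cells, 3.28 and 3.38 in EA cells with hormone, 10.85 and 11.004 in unstimulated YF cells, and 10.33 and 10.53 in YF cells with hormone. One unstimulated EA array stood above the other 3 but far below the YF arrays. The difference was -6.65 (SE 0.39, adjusted p = 0.00057), and a second probe set gave -2.22 (SE 0.18, adjusted p = 0.0014).

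Hoxc8, which patterns the thoracic skeleton and the motor neurons that serve the forelimb, differed while remaining above the low group on both sides. It read 7.42 and 6.83 in unstimulated EA cells, 6.66 and 6.79 in EA cells with hormone, 11.26 and 11.35 in unstimulated YF cells, and 10.67 and 10.85 in YF cells with hormone. No EA array reached a YF array, and the difference was -4.11 (SE 0.14, adjusted p = 0.00010). Its size is thus not open to the uncertainty of the low group. Hoxc9, a thoracic gene that borders Hoxc8, read 2.26, 2.42, 2.12 and 2.54 on the EA arrays, and 4.53 and 3.32 without and 4.30 and 2.97 with hormone on the YF arrays. All YF arrays were above all EA arrays, but the YF replicates were more than 1 unit apart in both groups. The difference of -1.44 did not pass (SE 0.41, adjusted p = 0.078). Hoxc6 (-0.22, SE 0.06, adjusted p = 0.056), Hoxc10 and Hoxc13, the last with a known role in hair and nails, lay in the low group on all arrays (2.55 to 3.0001, 2.54 to 2.87 and 2.58 to 2.72).

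In Hox A the direction of the difference followed the place in the cluster. Among the low paralogue numbers, Hoxa2, Hoxa3 and Hoxa5 were lower in EA cells, and among the high numbers Hoxa9, Hoxa10 and Hoxa11 were higher. Hoxa5, with roles in the lung and the neck skeleton, read 7.83 and 7.73 in unstimulated EA cells, 7.73 and 8.26 in EA cells with hormone, 9.49 and 9.36 in unstimulated YF cells, and 8.86 and 9.21 in YF cells with hormone. The EA and YF arrays did not overlap, and the difference was -1.34 (SE 0.14, adjusted p = 0.0033). A second Hoxa5 probe set, in the low group in EA cells, gave -2.67 (SE 0.22, adjusted p = 0.0015).

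Hoxa2, which sets the identity of the second pharyngeal arch, read 5.69 and 4.03 in unstimulated EA cells, 3.98 and 4.02 in EA cells with hormone, 6.03 and 6.28 in unstimulated YF cells, and 6.29 and 6.02 in YF cells with hormone. One unstimulated EA array lay close to the YF arrays and the other 3 near the bound. The difference was -1.72 (SE 0.37, adjusted p = 0.034), and it did not pass without any 1 of the EA arrays with hormone or the YF arrays (adjusted p 0.069 to 0.11, difference -1.79 to -1.66), nor after quantile normalization (0.052). Hoxa3, needed for the thymus and parathyroid, read 8.39 and 8.03 in unstimulated EA cells, 8.04 and 8.22 in EA cells with hormone, 9.33 and 9.55 in unstimulated YF cells, and 8.29 and 9.03 in YF cells with hormone. The low YF value belongs to replicate 1 with hormone, the array that stood apart, and it lay within the range of the EA arrays. The difference of -0.88 (SE 0.19, adjusted p = 0.036) became -1.07 without that array (adjusted p = 0.010), and it did not pass without any 1 of the EA arrays or the unstimulated YF arrays (0.066 to 0.12), nor after quantile normalization (0.058), nor on the second probe set (-0.97, adjusted p = 0.075). On its brightest probe set Hoxa4 was also low on that array, at 5.77 against 7.01 on its partner, 6.69 and 7.27 in unstimulated YF cells and 5.80 to 5.88 in EA cells. On its other probe set that array was instead the highest of the 8, at 5.26 against 4.09 on its partner. Its difference of -0.85 did not pass with all arrays (SE 0.30, adjusted p = 0.15) and was -1.16 without that array (adjusted p = 0.015).

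Among the 5′ genes of Hox A, Hoxa11, required with Hoxd11 for the bones of the forearm, read 10.10 and 10.11 in unstimulated EA cells, 10.33 and 10.07 in EA cells with hormone, 8.64 and 8.80 in unstimulated YF cells, and 9.21 and 8.90 in YF cells with hormone. The EA arrays were all above the YF arrays, by 1.26 on average (SE 0.10, adjusted p = 0.0012). Hoxa9, a regulator of blood progenitors and the proximal limb, read 12.95 and 12.75 in unstimulated EA cells, 12.89 and 12.72 in EA cells with hormone, 12.16 and 12.07 in unstimulated YF cells, and 12.15 and 12.27 in YF cells with hormone. Its groups did not overlap either. The difference was 0.67 (SE 0.07, adjusted p = 0.0030), with 1.63 on a dimmer second probe set (SE 0.27, adjusted p = 0.014). Hoxa10, which acts in the uterus and the lower spine, differed by 0.57 (SE 0.11, adjusted p = 0.026), with EA arrays at 12.16 to 12.51 and YF arrays at 11.54 to 11.97. That call did not hold without either unstimulated EA array, EA with hormone replicate 2, unstimulated YF replicate 1 or YF with hormone replicate 1 (adjusted p 0.060 to 0.089). A dimmer second Hoxa10 probe set had the same sign but did not pass (1.05, SE 0.33, adjusted p = 0.11), and its EA and YF arrays overlapped. The antisense gene Hoxa11os was higher in EA cells as well, by 0.85 (SE 0.16, adjusted p = 0.023). Hoxa7 (1.82 to 2.12), in the middle of the cluster, and Hoxa13 (2.01 to 2.44), its most 5′ gene, lay in the low group on all arrays.

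Hox D had its 5 genes above the low group at bright values in every group, and its differences were small. Hoxd9, a gene of the proximal limb, read 12.60 and 12.54 in unstimulated EA cells, 12.71 and 12.53 in EA cells with hormone, 11.50 and 11.53 in unstimulated YF cells, and 11.97 and 11.84 in YF cells with hormone. EA arrays were all above YF arrays, by 0.88 on average (SE 0.06, adjusted p = 0.00068). Hoxd8, the neighbour of Hoxd9, read 12.04 and 11.94 in unstimulated EA cells, 12.14 and 12.06 in EA cells with hormone, 11.56 and 11.66 in unstimulated YF cells, and 11.53 and 11.46 in YF cells with hormone. The groups were again apart, by 0.49 (SE 0.04, adjusted p = 0.0017), and its second probe set gave 0.74 (SE 0.022, adjusted p = 6.9e-05).

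Hoxd13, the digit gene, was slightly lower in EA cells. It read 13.24 and 13.12 in unstimulated EA cells, 13.21 and 13.27 in EA cells with hormone, 13.46 and 13.47 in unstimulated YF cells, and 13.33 and 13.38 in YF cells with hormone. The groups did not overlap but came within 0.1 of each other, and the difference was -0.20 (SE 0.04, adjusted p = 0.022), a call lost without any 1 of EA replicate 2, the EA arrays with hormone, the unstimulated YF arrays or YF with hormone replicate 2 (0.050 to 0.083), with the filter at a mean of 4 (0.063) and with the mean of both probe sets (0.20). The other Hoxd13 probe set lay at 1.92 to 2.65 on all arrays, so the bright level rests on 1 probe set. Hoxd10, a gene of the hindlimb and lumbar cord, differed by -0.16 (SE 0.04, adjusted p = 0.069, 95% interval -0.28 to -0.05), and Hoxd11 by -0.11 (SE 0.07, adjusted p = 0.51, 95% interval -0.29 to 0.07), and neither passed. Hoxd1 (2.41 to 2.51), Hoxd3 (2.19 to 2.37) and Hoxd12 (1.95 to 2.01) lay in the low group on all arrays.

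Probe sets of 1 gene did not always share a level. Of the 11 Hox genes with 2 or more, Hoxa3, Hoxb3, Hoxb4, Hoxc5 and Hoxd13 had 1 or more probe sets in the low group on nearly all arrays beside a bright one. The brightest probe sets of Hoxa3, Hoxa4, Hoxa5 and Hoxd8 have a name suffix by which the maker marks probes that may match other transcripts. With the brightest probe set free of that suffix in their place, 17 Hox genes were again called, 5 higher and 12 lower, of which 16 were called in the first count. Hoxa4 entered (-1.50, adjusted p = 0.033) and Hoxa3 left (adjusted p = 0.075).

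**Figure D3:**
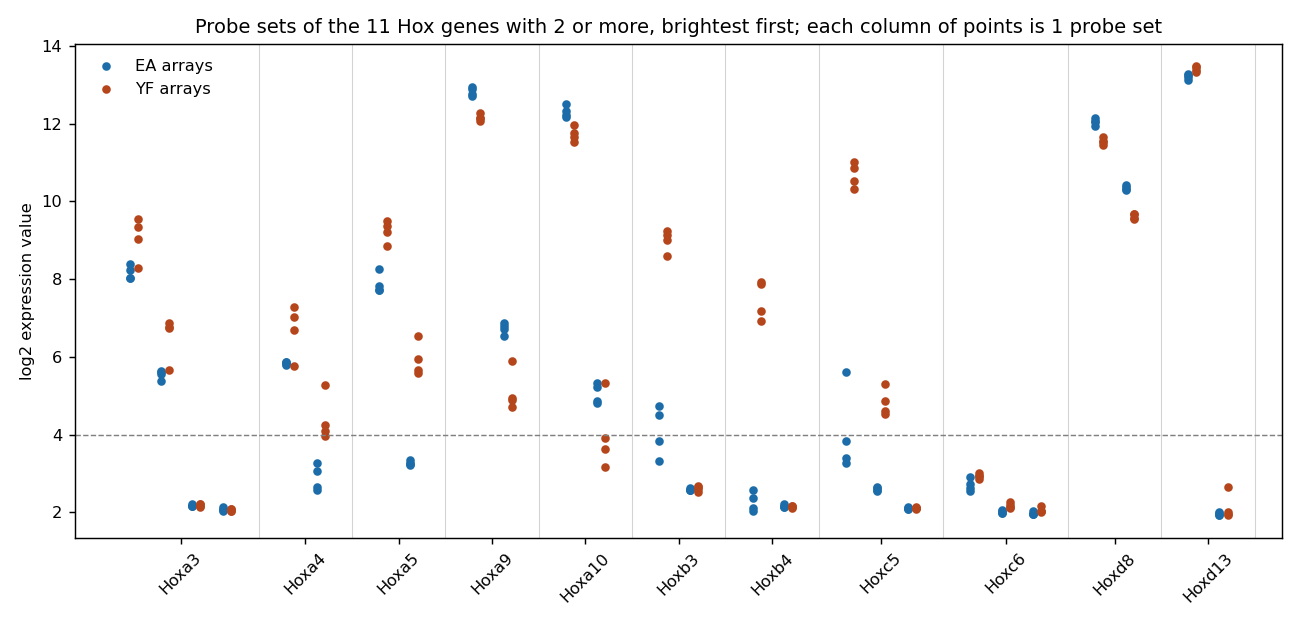
Log2 expression values (vertical axis) for every probe set of the 11 Hox genes that have 2 or more, with 1 point per array, 4 EA and 4 YF arrays side by side for each probe set and the dashed line at 4. Where a second probe set lies above the line in either mutant, the order of its EA and YF means is that of the brightest one, as for Hoxa5, Hoxa9, Hoxc5 and Hoxd8.

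Taken separately by treatment, the mutant comparisons gave similar lists. Without hormone 4 Hox genes were higher in EA and 11 lower, against 5.51% higher and 5.25% lower of all probe sets. With hormone 4 were higher and 9 lower, against 4.37% and 5.80%. As in the averaged comparison, the background for bright genes is higher than these shares of all probe sets. These comparisons share no arrays, though they share 1 estimate of spread, and 13 genes passed in the same direction in both. They were Hoxa5, Hoxa9, Hoxa11, Hoxb3, Hoxb4, Hoxb5, Hoxb6, Hoxb9, Hoxc4, Hoxc5, Hoxc8, Hoxd8 and Hoxd9. When each comparison was fitted on its own 4 arrays alone, the genes common to both fell in number to 7: Hoxb3, Hoxb4, Hoxb6, Hoxb9, Hoxc4, Hoxc5 and Hoxc8. The same 7 passed in both comparisons under all 16 alternatives, and leaving out 1 array at a time left 9 to 12 in common. Hoxd10 (-0.29 without hormone, SE 0.06, adjusted p = 0.046; -0.035 with hormone, adjusted p = 0.68) and Hoxd13 (-0.28, SE 0.05, adjusted p = 0.031; -0.11, adjusted p = 0.28) passed without hormone and not with it, and the test of that change passed for neither (adjusted p = 0.45 for both). With hormone, the Hoxa5 call was lost in 10 of the 16 alternatives, the Hoxb5 call in 8 and the Hoxa9 call in 4, and those of Hoxa11 and Hoxd9 in 1 each. One of these settings, which ended the first 3 calls together, left out YF with hormone replicate 1 (Hoxb5 -3.90, adjusted p = 0.11; Hoxa5 -1.21, 0.059; Hoxa9 0.54, 0.087). Without hormone, the Hoxd10 call was lost in 13 alternatives, Hoxd13 in 9, Hoxd8 in 5, Hoxa5 and Hoxa9 in 2 each and Hoxb5 in 1.

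The second set of comparisons asks whether growth hormone altered Hox RNA within 120 minutes. In limma 0 of 33 Hox genes passed in EA cells (without adjustment, 0 had a p under 0.05 upwards and 2 downwards) and 0 in YF cells (without adjustment, 1 upwards and 7 downwards). Among all probe sets 0.0933% were higher and 0.0422% lower in EA cells, and 0.129% and 0.0511% in YF cells. The interaction of mutant and hormone also called 0 Hox genes (without adjustment, 3 more positive in EA and 1 more negative), against 0.00888% higher and 0.0111% lower of all probe sets. With so few calls in the whole table, 0 of 33 is close to the background.

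In YF cells, 15 of the 16 Hox B and Hox C genes had values below 0 with hormone, as did 25 of all 33 Hox genes and 68.2% of all probe sets. None of these genes passed over all arrays. The 8 above the low group ranged from -0.85 for Hoxb4 to -0.25 for Hoxb9. Hoxb4 had the lowest adjusted p of the 33 genes (SE 0.11, adjusted p = 0.11, 95% interval -1.13 to -0.58), with both arrays with hormone, 6.92 and 7.19, below both without, 7.93 and 7.88. It passed in the fit without YF with hormone replicate 2, and without the array that stood apart its value was -0.72 (adjusted p = 0.14). Over the other genes the values without that array were -0.76 for Hoxc4 (adjusted p = 0.42) to -0.19 for Hoxb3, with 8 of 8 again below 0. The genes of a cluster are not independent, and the median over all probe sets in this comparison was -0.04. Hoxd9 had the largest value above 0 in YF cells, 0.39 (SE 0.08, adjusted p = 0.20).

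In EA cells the largest values belonged to Hoxb5 (1.46, SE 0.74, adjusted p = 0.87, 95% interval -0.42 to 3.34) and Hoxc5 (-1.39, SE 0.56, adjusted p = 0.87, 95% interval -2.80 to 0.02). Each rests on 1 array: 4.98 on EA with hormone replicate 2 for Hoxb5, and 5.61 on unstimulated EA replicate 2 for Hoxc5. In the fit without unstimulated EA replicate 1, Hoxc5 was the 1 Hox gene called. The Hox D genes above the low group stayed within 0.11 of 0 in EA cells, and Hoxd8 had the value of 0.11 (95% interval -0.04 to 0.26).

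**Figure D4:**
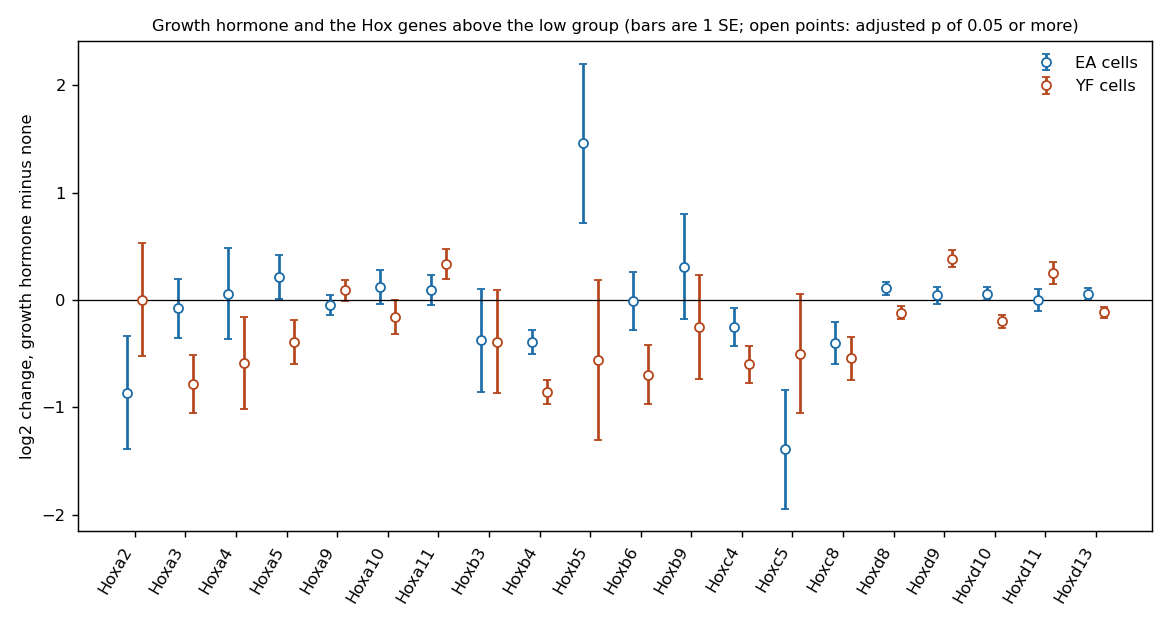
Log2 change with growth hormone (vertical axis) in EA and YF cells for the 20 Hox genes that were above the low group in 1 or more groups; bars are 1 SE and open points did not pass. No gene passed, and the 8 Hox B and Hox C genes have YF values from -0.85 to -0.25.

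The partners of Hox proteins on DNA, the homeodomain proteins of the Pbx, Meis and Pknox families, also differed between the mutants. Of 8 measured genes, 3 were higher in EA cells and 3 lower (37.5% each, against 8.17% higher and 8.38% lower of all probe sets, the background for the lists that follow). All 8 had a mean at or above 4 in 1 or more groups. With the filter at a mean of 4, 24773 of the 45037 probe sets were left out and 7766 were called in either direction. The background for bright genes is therefore higher than the shares of all probe sets. Meis1 read 5.52 and 5.42 in unstimulated EA cells, 5.42 and 5.74 in EA cells with hormone, 7.94 and 7.95 in unstimulated YF cells, and 7.66 and 7.84 in YF cells with hormone. It was lower on every EA array, by -2.32 on average (SE 0.09, limma adjusted p = 0.00014). The Meis1 call rests on 1 probe set, as its others lay in the low group and did not pass (-0.19, adjusted p = 0.26, and 0.004, adjusted p = 0.93). Meis2 was lower by -1.03 (SE 0.07, adjusted p = 0.00077), with 2 of its 3 other probe sets also lower. Pknox2 was higher in EA cells, by 1.58 (SE 0.05, adjusted p = 6.5e-05), and Pbx4 by 0.74 (SE 0.14, adjusted p = 0.021). A second probe set of each lay in the low group and did not pass (adjusted p = 0.74 and 0.75). The list's median was 0.31, against 0.02 for all probe sets.

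Of 23 measured Polycomb and Trithorax genes, 6 were higher in EA cells (26.1%) and 2 lower (8.70%), with a median of 0.15. The shares of all probe sets were 8.17% and 8.38%. Since 21 of the 23 had a mean at or above 4 in 1 or more groups, their shares are not read as an excess. The 4 with the largest differences belong to the Polycomb complexes that keep Hox genes silent. Pcgf2 (1.10, SE 0.14, adjusted p = 0.0055), Phc1 (1.02, SE 0.07, adjusted p = 0.0011) and Ezh1 (1.01, SE 0.05, adjusted p = 0.00037) were higher, and Cbx2 was lower (-0.96, SE 0.04, adjusted p = 0.00019). A second Pcgf2 probe set, also above the low group, did not pass and had the other sign (-0.16, adjusted p = 0.21). The 3 other Ezh1 probe sets, which were dim, did not pass (adjusted p 0.21 to 0.66).

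Upstream of Hox genes act the Cdx factors and retinoic acid. Of 13 measured genes of that list, 1 was higher in EA cells (7.69%) and 2 lower (15.4%), against 8.17% and 8.38% of all probe sets. Only 5 of the 13 had a mean at or above 4 in 1 or more groups, and the genes that passed were among those 5. Cdx1, Cdx2 and Cdx4 lay in the low group throughout. Cyp26b1, the enzyme that breaks down retinoic acid, was lower in EA cells by -3.26 (SE 0.26, adjusted p = 0.0014), with the EA side in the low group. Rarb, a retinoic acid receptor whose gene is itself a retinoic acid target, was lower by -1.58 (SE 0.25, adjusted p = 0.013), and Rxra was higher by 0.49 (SE 0.06, adjusted p = 0.0067).

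Genes that lie beside the Hox clusters differed by less than 1 between the mutants on all their probe sets above the low group (-0.57 to 0.84, 25 probe sets). By the brightest probe sets, 2 of 17 were higher in EA cells (11.8%, against 8.17% of all probe sets) and 0 lower (8.38%), both beside Hox A: Hibadh (0.69, SE 0.07, adjusted p = 0.0028) and Skap2 (0.22, SE 0.05, adjusted p = 0.033). By the same probe sets Skap1, Snx11 and Cbx1 beside Hox B did not pass, nor did Smug1, Cbx5 and Calcoco1 beside Hox C, and the 17 values lay between -0.27 and 0.69. Over all 38 probe sets of these genes 6 were higher and 1 lower. They included a second one of Cbx5 (0.46, adjusted p = 0.0010) and one of Lnpk beside Hox D (-0.57, adjusted p = 0.0060), a gene whose brightest did not pass (0.26, adjusted p = 0.49). Of 23 other homeobox genes of the wider Hox-related class, 2 were higher in EA cells (8.70%) and 3 lower (13%). The shares of all probe sets were 8.17% and 8.38%. Only 5 of the 23 had a mean at or above 4 in 1 or more groups, and most of those 5 passed. Msx1, a gene of the limb bud and facial mesenchyme, was lower by -2.45 (SE 0.06, adjusted p = 3.9e-05) and En1, which marks the ventral limb ectoderm and the midbrain border, by -2.30 (SE 0.27, adjusted p = 0.0048). Meox2, a gene of the somites and limb muscle, was higher by 1.20 (SE 0.05, adjusted p = 0.00021), with both sides in the low group, and Msx2 was lower by -1.45 (SE 0.28, adjusted p = 0.023).

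**Figure D5:**
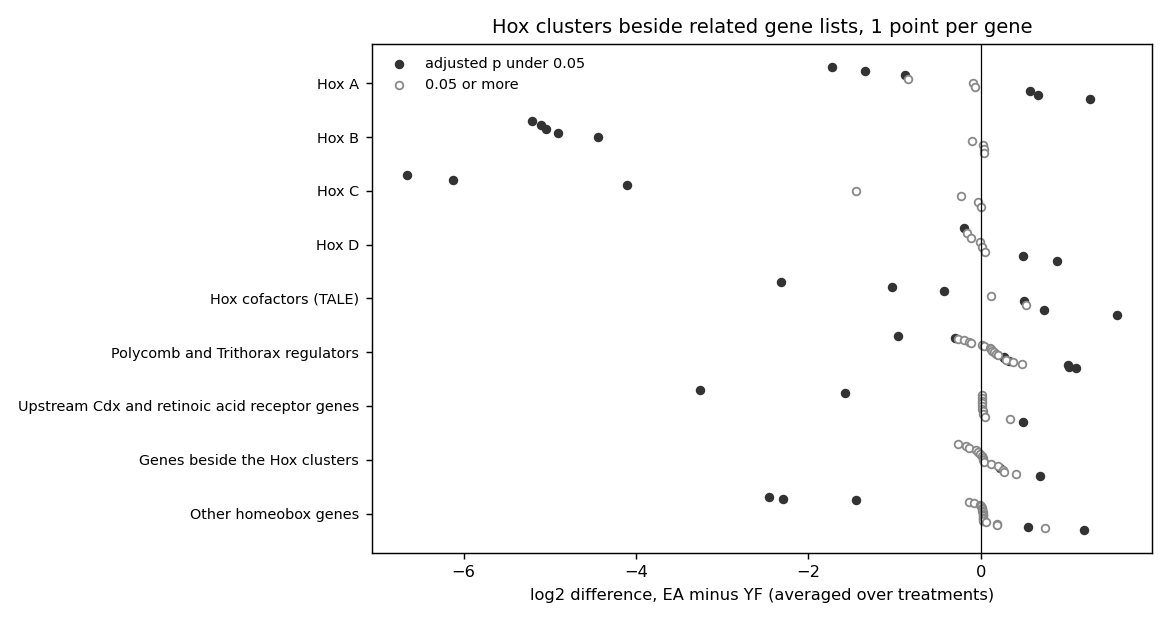
Log2 difference between EA and YF cells, averaged over treatments (horizontal axis), with 1 point per gene for the 4 Hox clusters and 5 related gene lists; filled points passed. The points below -4 are all Hox B or Hox C genes, and the genes beside the clusters, by their brightest probe sets, lie between -0.27 and 0.69. Hoxb5os (-7.25) and the fibroblast marker Thy1 (-4.96), in lists not drawn here, were also below -4.

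Some genes used as cell type markers differed between the mutants, and their counts stand against 8.17% higher and 8.38% lower of all probe sets. The fibroblast marker Thy1 was lower in EA cells by -4.96 (SE 0.09, adjusted p = 1.8e-05), and of the 13 fibroblast markers 1 was higher (7.69%) and 4 lower (30.8%). All 13 were above the low group, so these shares are not read as an excess. Krt19 was higher in EA cells by 5.20 (SE 0.28, adjusted p = 0.00042), while the other 5 of 6 epithelial markers, Epcam and Cdh1 among them, lay in the low group on every array, where Krt18 passed as well (2 of 6 higher, 0 lower). The summed epithelial level was 9.42 to 10.3 in EA and 5.31 to 6.15 in YF cells. Cd68, a macrophage protein gene, was higher in EA cells by 3.15 (SE 0.15, adjusted p = 0.00026), with 4 of 5 leukocyte markers, Ptprc among them, in the low group and summed levels of 10.8 to 11.3 and 7.72 to 8.56. Of 4 neural markers 1 was higher (Nes, 1.37) and 2 lower (Sox2, -1.47, and Tubb3, -1.45), and of 5 muscle markers 0 and 1. The neural list had summed levels of 10.62 to 10.96 and 9.50 to 10.1, with Sox10 in the low group. That sum follows Nes, its brightest member, and not the 2 lower genes. The muscle list had 6.19 to 7.002 and 7.56 to 8.77, with Myod1 in the low group. The part of cell make-up in the Hox differences was not tested.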

How the data were processed

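The deposited table holds log2 expression values per probe set, 1 column per array, as the authors made them. The submitters' processing notes name GCOS, the scanner software, and RMA, with no versions. What settings were used, and in which order, is not stated in these notes. Array medians lay between 2.85 and 2.94, so no further normalization was applied. Of 45101 probe sets, 64 controls were left out. The platform annotation gave 1 gene symbol to 34945, several to 932 and none to 9160, and a match by gene identifier to RefSeq (34741 matched) changed 0 symbols.

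Differences were tested in limma (version 3.58.1, R 4.3.3) with lmFit and eBayes, in a model of 4 group means over the 8 arrays (4 residual and 1.26 prior degrees of freedom). Tests were two-sided, with Benjamini-Hochberg adjustment over all 45037 probe sets, and the code was tested on simulated data. Each gene was represented by its brightest probe set, the one with the highest mean. Every Hox gene could be named. From each other list, called genes were named, up to 4 by size, and otherwise up to 2. The members and the 12 lists were chosen with earlier results of these data known. Alternatives covered normalization, filter, variance model, probe set choice, replicate block and left-out arrays. Figures were drawn in matplotlib (version 3.10.9). Promoter sequences were searched on both strands.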

Additional observations from a re-analysis of the deposited data

How the results depend on the processing

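Averaged over treatments, the number of Hox genes called between EA and YF cells was 17, and 15 to 18 after array centring, quantile normalization, a filter at a mean of 4, trend and robust options, or averaging of a gene's probe sets. Without 1 array at a time it was 13 to 17, against 10 to 16 (15 with all arrays) without hormone and 10 to 13 (13) with hormone. Fits of the contrast's own groups gave 12 and 9. For growth hormone the count was 0, and 0 to 1 without 1 array in EA and in YF cells: Hoxc5 without unstimulated EA replicate 1 and Hoxb4 without YF with hormone replicate 2. The difference of the responses stayed at 0. The replicate block, a number that no label ties to a shared culture, gave 15, 13 and 11 for the 3 mutant comparisons and 0 for the 3 others, with Hoxa3 and Hoxd13 at an adjusted p of 0.052 in the first. Replicate differences correlated between groups at -0.30 to 0.37. Whole-table counts moved more: 4579 probe sets with hormone became 2372 to 5263, 4847 without hormone 2488 to 5296, 61 for growth hormone in EA cells 4 to 106, 81 in YF cells 1 to 675, and 9 for the interaction 0 to 201. The next counts cover 15 settings and the 20 Hox genes above the low group in 1 or more groups. Here 266 values kept direction and side of the threshold and 0 turned. A call was lost by 30 (Hoxa2, Hoxa3, Hoxa10 and Hoxd13), and 4 gained one (Hoxa4 and Hoxd10). Some of the other 13 Hox genes gained a call too: Hoxb2 with the trend and robust options, Hoxc6 with the mean of its probe sets, and others without 1 array. Bounds of 3.5, 5 and 6 for the low group gave 17, 12 and 11 Hox genes above it (15 at a bound of 4) in unstimulated EA cells, 16, 12 and 11 (12 at a bound of 4) in EA cells with hormone, and 21, 20 and 20 in both YF groups. The number of arrays limits the precision, and for Hox B and Hox C genes the scale of the low group limits the size of the differences.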

Other observations

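Some Hox genes differed between arrays of 1 group by more than 1 log2 unit. By their brightest probe sets there were 3 of 33 in unstimulated EA cells, 2 in EA cells with hormone, 1 in unstimulated YF cells and 2 in YF cells with hormone. The largest such gap was 2.27, for Hoxb5 in EA cells with hormone (2.70 and 4.98), followed by 1.78 for Hoxc5 in unstimulated EA cells (3.83 and 5.61). Hoxc9 had the largest gap in both YF groups, 1.21 without and 1.33 with hormone, with replicate 1 the higher array each time. The median gap over the 33 genes was 0.20 in YF cells with hormone and 0.09 to 0.10 in the other groups. Over all probe sets it was 0.065 in YF cells with hormone, 0.052 in unstimulated YF cells, 0.045 in unstimulated EA cells and 0.098 in EA cells with hormone, so the Hox median was above that of all probe sets in 3 groups and below it in EA cells with hormone.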
